A study of Mus musculus with 21 samples.

Results

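Transcripts of 8 secreted or membrane-bound mediators of T cells were followed through 21 libraries of mouse T cell cultures: interferon-γ (Ifng), 5 ligands of the tumour necrosis factor (TNF) superfamily (Tnf, Lta, Ltb, Fasl and Tnfsf11), the growth factor GM-CSF (Csf2) and interleukin 10 (Il10). The genes were chosen by name, and all 8 were found among the 13202 genes of the deposited table. All 8 also passed the filter on low values, as did 12630 genes in all. Values are RPKM, reads scaled to gene length and to the library's total, so that levels of different genes can be set side by side per length. A change was called when the adjusted p of limma was under 0.05 over all 12630 genes, and log2 changes are on the log2(RPKM + 1) scale with their standard error (SE), which understates the change of low genes.

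Interferon-γ is the signature cytokine of activated CD8 T cells, and acts through a receptor of the Ifngr1 and Ifngr2 chains to switch on defence genes in the cells that sense it. TNF and the lymphotoxins activate NF-κB through TNF receptors. Fas ligand instead triggers death of cells that carry Fas, and RANKL, the product of Tnfsf11, acts on osteoclast precursors and dendritic cells. GM-CSF drives myeloid cells, and interleukin 10 restrains them and other immune cells.

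The cultures fell into 7 groups of 3 libraries in 3 experiments, all harvested 8 days after the first stimulation and all kept in 10 ng/mL interleukin 2 and β-mercaptoethanol. Polyclonal acute and polyclonal chronic cells came from C57BL/6 mice (spleen with inguinal lymph nodes), were isolated untouched with a CD8 T cell kit and were activated on anti-CD3 and anti-CD28 for 48 h. The chronic cells then met plate-bound anti-CD3 anew every 48 h, and the acute cells did not. OT-I acute and OT-I chronic cells carried the OT-I transgenic T cell receptor, were activated with the ovalbumin peptide SIINFEKL and were cultured with B16-F10 melanoma cells pretreated with 1 ng/mL interferon-γ. Peptide was added again in the chronic co-cultures only, so both OT-I groups contained tumour cells. Vehicle acute, vehicle chronic and NAC chronic cells were C57BL/6 cells of another experiment, and acute and chronic are the terms of their labels. The stimulation interval recorded was 48 h in this experiment and in the OT-I co-cultures too. The C57BL/6 cells of this other experiment received vehicle or, from 48 h onwards, the antioxidant N-acetylcysteine (NAC) at 10 mM. No acute group with NAC was among these libraries. The labels name no separate animals or cultures, so p-values measure the spread between these libraries, which may be technical.

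Libraries held 5347355 to 25218890 reads in listed genes, and the fewest reads behind any value of the 8 genes were 14, for Csf2 in polyclonal acute library 2. In 3 libraries (polyclonal acute 2, polyclonal chronic 2 and OT-I acute 3) low genes stood above those of their groups: the 2000 lowest genes summed to 3081, 2334 and 3263 RPKM, against 690 to 1332, 1022 to 1185 and 1810 to 1955 RPKM in the other libraries of the same groups. Cell type markers did not follow the labels everywhere. In polyclonal chronic libraries Cd8a, which encodes a CD8 chain, was at 8.48 ± 0.165 RPKM (SD, n = 3) against 101 ± 0.556 RPKM in polyclonal acute ones, and 4 of 7 CD8 T cell markers fell and 2 rose. The 5 CD4 T cell markers summed to 191 to 198 RPKM in polyclonal acute and 670.1 to 687 RPKM in polyclonal chronic libraries, with 4 of 5 higher. All 8 B cell markers rose, from a sum of 4.0 to 16.9 to one of 589.5 to 705 RPKM, of which Mzb1 made up 434 RPKM. Their part in the polyclonal results was not tested. The OT-I libraries held RNA of melanoma cells: 12 melanocyte genes summed to 7969.7 to 8269 RPKM in acute and 4655 to 4781 RPKM in chronic libraries, with 9 lower and none higher, and B cell markers went from 13.6 to 20.6 up to 192 to 201 RPKM (6 of 8 higher), of which Mzb1 was 155 RPKM. The NK cell markers, of a cell type that also makes interferon-γ, summed to 6.02 to 8.71 RPKM in OT-I acute and 23.8 to 26.1 RPKM in OT-I chronic libraries (3 of 4 higher and none lower). Myeloid markers summed to 8.82 to 14.7 and 25.1 to 27.3 RPKM (3 of 7 higher and 1 lower), of which Mpeg1 was 1.96 and 15.6 RPKM. Of the 7 CD8 T cell markers 1 was higher and 5 lower, and of the 5 CD4 T cell markers 1 was higher and 3 lower. The part of these cell types in the OT-I results was not tested either. The 12 melanocyte genes summed to 34.1 to 81.4 RPKM in polyclonal acute and 50.3 to 72.5 RPKM in polyclonal chronic libraries. In vehicle acute, vehicle chronic and NAC chronic libraries the sums were 10.4 to 11.2, 1.54 to 2.22 and 7.49 to 8.76 RPKM. Their source outside the OT-I libraries was not tested. In the vehicle and NAC experiment Tyr, Tyrp1, Slc45a2 and Gpr143 were listed at 0 in every library, and B cell markers summed to 4.21 to 12.1 RPKM. Cd4 was at 13.9, 2.39 and 47.9 RPKM in vehicle acute, vehicle chronic and NAC chronic cells, in that order, and of the 5 CD4 T cell markers 2 were higher and 2 lower in vehicle chronic than in vehicle acute cells, and 4 higher and 1 lower with NAC. The CD8 chain genes differed: Cd8a was at 87.1, 145 and 138 RPKM and Cd8b1 at 179, 88.8 and 184 RPKM. The 7 CD8 T cell markers summed to 1475 to 1533 RPKM in vehicle acute and 1818 to 1831 RPKM in vehicle chronic libraries (4 higher and 2 lower), and to 2279 to 2327 RPKM with NAC (4 higher and none lower). The 4 NK cell markers summed to 46.7 to 54.2, 62.7 to 65.3 and 33.0 to 36.2 RPKM (2 higher in vehicle chronic cells, and 2 lower with NAC). The 7 myeloid markers summed to 15.6 to 19.5, 28.7 to 31.9 and 52.5 to 55.8 RPKM (4 higher and none lower in vehicle chronic cells, 3 higher and 2 lower with NAC), and Itgax among them was at 2.53, 7.52 and 26.4 RPKM. Their part in the vehicle and NAC results was not tested. In bulk RNA, fewer cells of a type and less RNA per cell cannot be told apart.

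**Figure D1:**
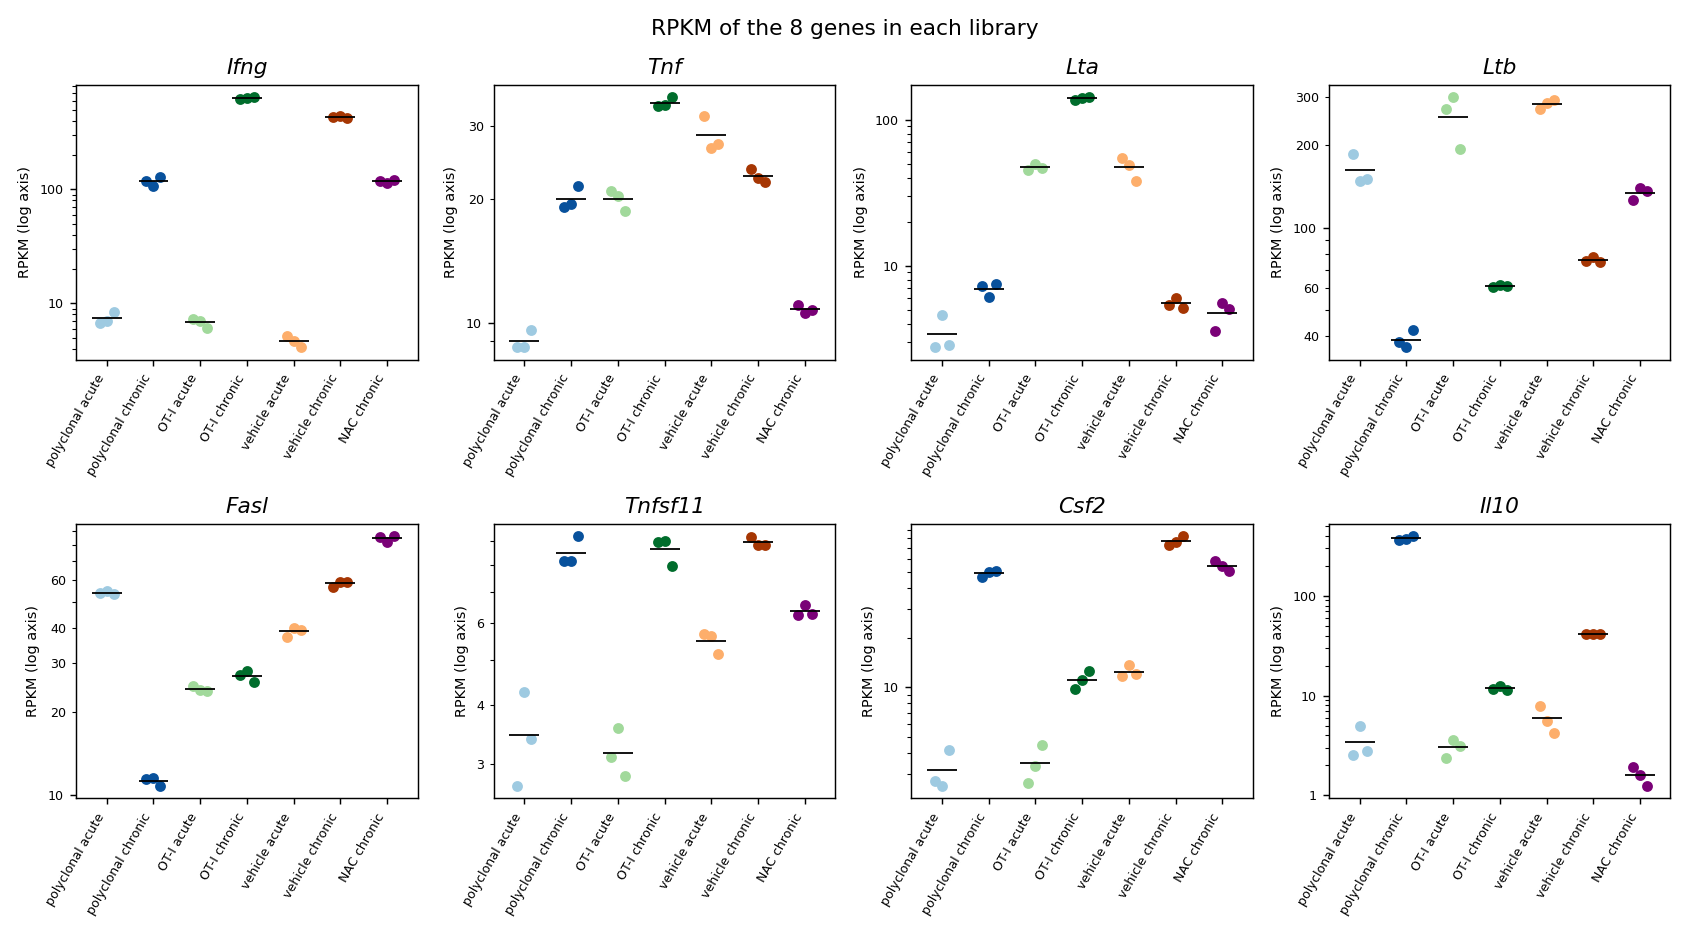
RPKM of each gene (log axis, a scale per panel) in the 7 groups; points are libraries and bars are group means of 3. Ifng sits above 108 RPKM in every chronic library and at or below 8.48 RPKM in every acute one, while Ltb is lower in each chronic group than in its acute group.

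All 8 genes changed with chronic stimulation in each of the 3 experiments, against a background of broad change. Of the 8, 6 rose and 2 fell in polyclonal cells, where 64.1% of all tested genes were called (28.6% higher and 35.5% lower). In OT-I co-cultures 7 rose and 1 fell, where 58.6% of all genes were called (22.4% higher and 36.2% lower). In vehicle-treated cells 5 rose and 3 fell, where 58.9% were called (24.5% higher and 34.4% lower). The direction of all calls depended on scaling in the OT-I comparison, where 38.2% of the called genes were higher, or 49.6% once all libraries were scaled to an equal median; none of the 8 genes changed its direction or lost its call by that rescaling in any chronic against acute comparison. With NAC, 2 of the 8 genes were higher and 5 lower than in vehicle chronic cells, against 61.1% of all genes called (38.5% higher and 22.6% lower). Of those called genes 63.0% were higher, or 45.1% after rescaling. No library of a chronic group overlapped with its acute group for any of the 8 genes, where 59.6%, 65.1% and 73.1% of all tested genes did not overlap in the polyclonal, OT-I and vehicle experiments. The median log2 change of the 8 genes was 1.09, 1.33 and 0.59 in the polyclonal, OT-I and vehicle experiments, against -0.08, -0.12 and -0.03 over all genes, and -0.47 under NAC, against 0.08. Without the 3 libraries of raised low genes every call of the 8 genes in these 4 comparisons was the same. Ifng, Tnfsf11, Csf2 and Il10 rose and Ltb fell in each of the 3 experiments, while Tnf, Lta and Fasl moved in different directions between them.

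Ifng was low in all acute cells and rose in every chronic group. Its values were 6.71, 6.95 and 8.48 RPKM in the polyclonal acute libraries and 119, 108 and 128 RPKM in the polyclonal chronic ones. In OT-I co-cultures they were 7.33, 7.04 and 6.11 RPKM without and 619, 637 and 641 RPKM with repeated peptide. Vehicle acute cells had 5.2, 4.67 and 4.13 RPKM and vehicle chronic cells 432, 439 and 421 RPKM. The ratio of the means was therefore 16.0 in the polyclonal, 92.7 in the OT-I and 92.2 in the vehicle experiment. The log2 changes were 3.83 (SE 0.079), 6.34 (SE 0.079) and 6.25 (SE 0.079), with limma adjusted p of 3.57e-19, 8.67e-22 and 1.62e-22. The OT-I and vehicle effects exceeded the polyclonal one by 2.51 (SE 0.11, limma adjusted p = 1.86e-13) and 2.42 (SE 0.11, limma adjusted p = 3.02e-13) log2 units. Between the OT-I and vehicle effects the difference was 0.09 (95% confidence interval -0.15 to 0.32, limma adjusted p = 0.519), which did not pass. The OT-I experiment differed from both others in its T cells and in its melanoma cells pretreated with interferon-γ. Its stimulus was peptide, where the polyclonal one used anti-CD3 and anti-CD28. The polyclonal and vehicle experiments both used C57BL/6 cells but were separate experiments. In these differences experiment and system cannot be told apart.

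With NAC, Ifng was at 119, 113 and 120.3 RPKM, below all vehicle chronic libraries and above all vehicle acute ones. The fall from vehicle chronic cells was 3.66-fold (log2 change -1.86, SE 0.079, limma adjusted p = 6.05e-14), and 25.2-fold more RNA than in vehicle acute cells was still present (log2 change 4.39, SE 0.079). In the order of the 7 groups, OT-I chronic stood first and vehicle chronic second, while polyclonal chronic (118 ± 9.94 RPKM) and NAC chronic cells (118 ± 3.91 RPKM) overlapped. Polyclonal acute and OT-I acute libraries overlapped too, and the vehicle acute libraries were lowest.

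Genes through which cells sense and answer interferon-γ did not follow Ifng in the same way in each experiment. Of 17 signalling and target genes, 11 rose and 4 fell in polyclonal chronic cells (median 0.22 log2 units). In OT-I chronic co-cultures 13 rose and 3 fell (median 0.70). Over all genes 28.6% rose and 35.5% fell in polyclonal cells (median -0.08), and 22.4% and 36.2% in OT-I co-cultures (median -0.12). In vehicle chronic cells, where Ifng rose 92.2-fold, 13 of the 17 fell and 1 rose (median -1.02). Over all genes 24.5% rose and 34.4% fell there (median -0.03). Iigp1, an interferon-induced GTPase gene, fell from 31.7 ± 2.93 to 1.25 ± 0.200 RPKM, and its relative Igtp fell from 202 ± 11.2 to 33.5 ± 0.436 RPKM. The gene of the 17 that rose was Cd274, which encodes PD-L1 (log2 change 1.36). With NAC, where Ifng fell, 11 of the 17 genes rose and 4 fell (median 0.64), against 38.5% and 22.6% of all genes (median 0.08). Iigp1 rose from 1.25 to 32.8 ± 1.33 RPKM and Igtp from 33.5 to 159 ± 6.10 RPKM. The OT-I co-cultures differed in the chemokine genes: Cxcl9 rose from 3.73 ± 0.215 to 448 ± 5.89 RPKM and Cxcl10 from 333 ± 11.8 to 1777 ± 30.9 RPKM, in libraries that also held interferon-γ-pretreated melanoma cells. In polyclonal chronic cells the leading genes were Ciita, the activator of MHC class II genes (0.621 ± 0.596 to 4.54 ± 0.287 RPKM), and Cd274 (21.1 ± 0.634 to 76.6 ± 7.31 RPKM). Both genes were higher in OT-I chronic than in OT-I acute co-cultures too. Ciita went from 1.90 ± 0.394 to 11.9 ± 0.832 RPKM there and Cd274 from 56.7 ± 3.58 to 123 ± 4.78 RPKM. Ciita is also a gene of B cells, whose markers rose in the polyclonal and OT-I chronic libraries.

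**Figure D2:**
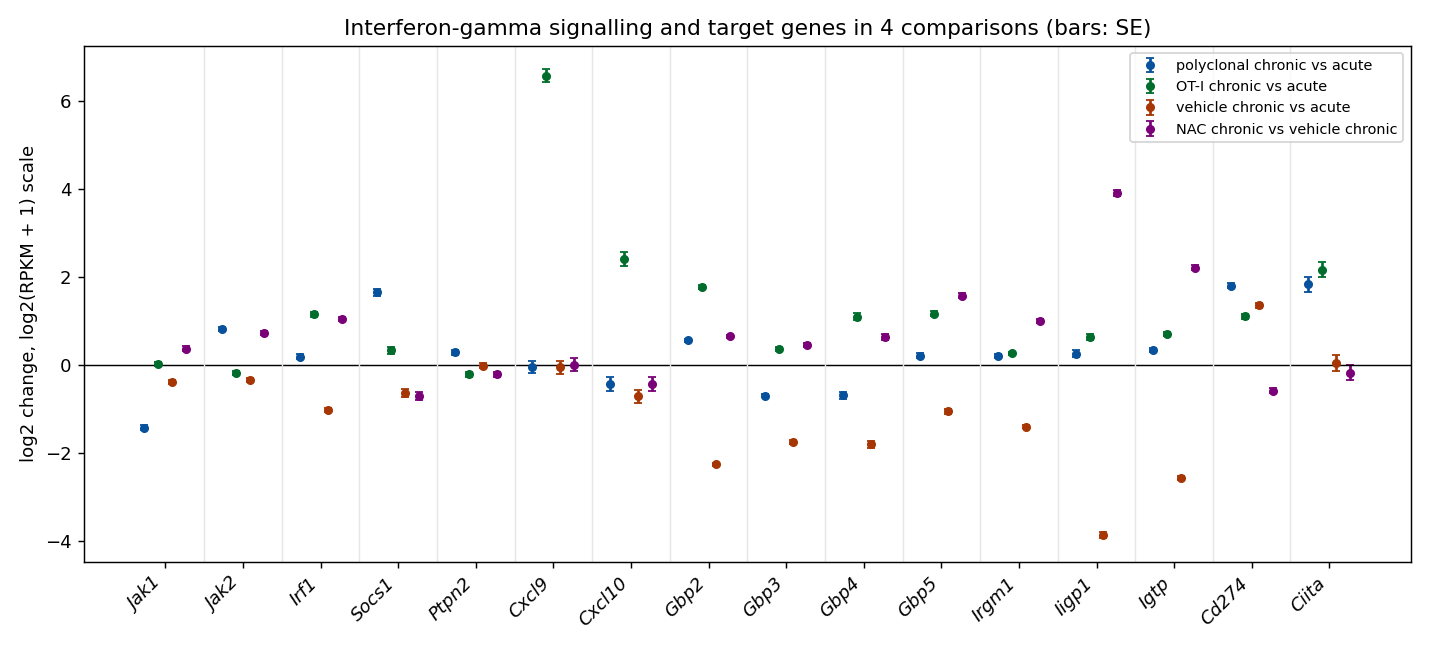
Log2 change with its SE (y axis, log2(RPKM + 1) scale) of interferon-γ signalling and target genes in 4 comparisons (colours). Vehicle chronic against acute points lie below 0 for the guanylate-binding and immunity-related GTPase genes Gbp2 to Gbp5, Irgm1, Iigp1 and Igtp (Iigp1 at -3.86), and their NAC against vehicle points lie above 0 (Iigp1 at 3.91).

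RNA of the receptor chains moved as well. Ifngr1 fell from 389 ± 12.5 to 51.6 ± 2.09 RPKM in polyclonal cells and from 225 ± 9.69 to 89.1 ± 2.83 RPKM in OT-I co-cultures. It was at 368 ± 6.34 RPKM in vehicle acute, 257 ± 2.75 RPKM in vehicle chronic and 394 ± 8.31 RPKM in NAC chronic cells. Ifngr2 went from 3.68 ± 0.821 up to 9.44 ± 1.29 RPKM in polyclonal cells, and from 23.3 ± 1.19 down to 17.9 ± 0.535 RPKM in OT-I co-cultures. In vehicle cells Ifngr2 fell from 5.60 ± 0.470 to 1.10 ± 0.0486 RPKM, and under NAC it was higher than in vehicle chronic cells by 1.72 log2 units. For the next counts, 28.6%, 22.4% and 24.5% of all genes rose in polyclonal, OT-I and vehicle chronic cells, and 35.5%, 36.2% and 34.4% fell. With NAC 38.5% of all genes rose and 22.6% fell. Among transcription factors that act on Ifng and other cytokine genes, 8 of 13 rose and 3 fell in vehicle chronic cells. They included the AP-1 gene Junb (81.6 ± 4.62 to 352 ± 6.29 RPKM) and Bhlhe40 (93.1 ± 5.26 to 294 ± 2.38 RPKM). Under NAC 4 rose and 6 fell, among them Bhlhe40 (to 139 ± 4.94 RPKM). Eomes, a T-box factor gene of CD8 T cells, rose under NAC from 85.01 ± 0.657 to 207 ± 2.66 RPKM. In polyclonal chronic cells, where 6 of the 13 rose and 4 fell, Eomes fell from 120.2 ± 2.75 to 7.76 ± 0.430 RPKM, and in OT-I co-cultures, where 9 rose and 2 fell, it rose from 10.2 ± 0.299 to 33.9 ± 0.863 RPKM.

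Tnf, Lta and Ltb lie next to each other on mouse chromosome 17 in the RefSeq annotation, in the order Ltb, Tnf, Lta, with Ltb on the opposite strand to the other pair. TNF and lymphotoxin-α are secreted trimers that share both TNF receptors, and lymphotoxin-β anchors lymphotoxin-α to the membrane for the receptor encoded by Ltbr. Their RNA took different courses, and the sequences just before their starts are given here because these neighbours moved apart. The upstream sequences of Ifng and Csf2 are added as those of the genes that rose most in the vehicle experiment and for which the table of RefSeq promoters holds an entry. Each is the 250 bases before the annotated start, written 5′ to 3′ on the gene's strand. Capitals mark the NFAT core GGAAA on either strand and, in Ltb, a match to the NF-κB consensus that overlaps such a core.
Ltb (GRCm38.p6, chr17:35194257-35194506, plus strand): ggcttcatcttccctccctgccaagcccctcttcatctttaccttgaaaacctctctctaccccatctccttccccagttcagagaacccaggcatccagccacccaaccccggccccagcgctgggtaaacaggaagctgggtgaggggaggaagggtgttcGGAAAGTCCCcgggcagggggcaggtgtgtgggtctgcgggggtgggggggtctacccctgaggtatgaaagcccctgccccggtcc
Tnf (GRCm38.p6, chr17:35202008-35202257, minus strand): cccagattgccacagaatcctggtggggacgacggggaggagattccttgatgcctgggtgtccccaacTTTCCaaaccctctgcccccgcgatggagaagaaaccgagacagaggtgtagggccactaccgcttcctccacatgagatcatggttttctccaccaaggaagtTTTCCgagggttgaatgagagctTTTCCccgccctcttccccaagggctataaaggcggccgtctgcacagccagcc
Lta (GRCm38.p6, chr17:35205352-35205601, minus strand): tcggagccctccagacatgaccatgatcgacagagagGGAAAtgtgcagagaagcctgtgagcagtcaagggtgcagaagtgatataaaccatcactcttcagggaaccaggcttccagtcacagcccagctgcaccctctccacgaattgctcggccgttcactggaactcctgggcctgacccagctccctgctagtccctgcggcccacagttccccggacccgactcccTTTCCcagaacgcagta
Ifng (GRCm38.p6, chr10:118440796-118441045, plus strand): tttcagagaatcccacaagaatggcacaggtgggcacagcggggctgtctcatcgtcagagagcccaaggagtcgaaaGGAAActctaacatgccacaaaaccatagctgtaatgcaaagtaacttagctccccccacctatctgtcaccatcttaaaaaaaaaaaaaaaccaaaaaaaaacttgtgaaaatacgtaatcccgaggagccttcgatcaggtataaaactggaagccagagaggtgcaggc
Csf2 (GRCm38.p6, chr11:54249900-54250149, minus strand): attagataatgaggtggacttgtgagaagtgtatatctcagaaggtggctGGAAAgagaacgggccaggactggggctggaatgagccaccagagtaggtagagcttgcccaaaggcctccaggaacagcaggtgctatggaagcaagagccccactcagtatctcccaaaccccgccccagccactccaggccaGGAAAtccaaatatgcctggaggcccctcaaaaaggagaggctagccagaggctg
NFAT and NF-κB are factors that T cell receptor signals activate. Promoters of 7 of the 8 genes were in the table, and Il10 was not among them. The NFAT core was present in 7 of 7, as it was in 55.6% of all 32851 promoters of the same length. Tnf held it 3 times, and Lta, Fasl and Csf2 each held it 2 times. The NF-κB consensus was found in Ltb only among the 7, against 3.90% of all promoters. The AP-1 motif TGANTCA and the T-box half-site GGTGTGA were in none of the 7, against 6.75% and 3.33% of all promoters. The TATA box letters TATAAA were in 4 of 7 (Ifng, Tnf, Lta and Tnfsf11), against 12.4%. Both strands were searched, and a match describes letters in this window only.

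Tnf changed little compared with Ifng, and its direction differed between the experiments. It was at 8.74, 8.71 and 9.59 RPKM in polyclonal acute and 19.1, 19.4 and 21.5 RPKM in polyclonal chronic cells. OT-I co-cultures had 20.9, 20.3 and 18.7 RPKM without and 33.7, 33.8 and 35.3 RPKM with repeated peptide. Both rises passed the test (log2 change 1.07, SE 0.064, limma adjusted p = 9.29e-12, and 0.75, SE 0.064, limma adjusted p = 5.49e-09). In vehicle cells Tnf instead fell slightly, from 31.9, 26.6 and 27.2 RPKM to 23.7, 22.5 and 22.0 RPKM (log2 change -0.31, SE 0.064, limma adjusted p = 0.000279). NAC chronic libraries were lower again, at 11, 10.6 and 10.7 RPKM, a 2.11-fold fall from vehicle chronic cells (log2 change -1.01, SE 0.064, limma adjusted p = 3.86e-11). The vehicle effect lay below the polyclonal one by 1.38 log2 units (-1.38, SE 0.091) and the OT-I effect above the vehicle one by 1.06 (SE 0.091), both called. Across the 7 groups Tnf spanned 3.80-fold, less than all of the other genes but Tnfsf11, which spanned 2.83-fold.

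Lta rose in the polyclonal and OT-I experiments and fell in the vehicle one. In polyclonal cells it was near the bottom of its range, at 2.77, 4.60 and 2.87 RPKM in acute and 7.31, 6.07 and 7.49 RPKM in chronic libraries. This was a rise (log2 change 0.87, SE 0.14, limma adjusted p = 2.20e-05). The acute values rest on 34 to 49 reads per library and the chronic ones on 65 to 157. OT-I co-cultures started at 45.3, 49.4 and 46.5 RPKM and reached 136, 141 and 142 RPKM with repeated peptide (log2 change 1.55, SE 0.14, limma adjusted p = 1.67e-08). Vehicle acute cells stood at about the same level, 55.0, 48.9 and 38.2 RPKM, and their chronic counterparts fell to 5.39, 6.02 and 5.15 RPKM, 8.58-fold lower (log2 change -2.88, SE 0.14, limma adjusted p = 5.29e-13). OT-I acute and vehicle acute libraries overlapped in Lta, whereas no OT-I chronic library came near the vehicle chronic ones. The difference between the OT-I and vehicle effects was 4.43 log2 units (SE 0.20, limma adjusted p = 3.39e-13). The vehicle effect also lay below the polyclonal one (-3.75, SE 0.20). A smaller difference of 0.68 (SE 0.20, limma adjusted p = 0.0078) between the OT-I and polyclonal effects passed, but not with a pseudocount of 0.1, with the test on recovered reads or without the 3 libraries of raised low genes, over which the adjusted p reached 0.505. NAC chronic libraries had 3.55, 5.52 and 5.07 RPKM of Lta, which overlapped with vehicle chronic ones. That change did not pass (log2 change -0.21, 95% confidence interval -0.51 to 0.10, limma adjusted p = 0.234), though it did after rescaling to a common median (log2 change -0.35, adjusted p = 0.0436).

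Ltb was the most abundant of the 8 RNAs in each of the acute groups and fell by a similar factor in all 3 experiments. Polyclonal libraries went from 186, 148 and 150.5 RPKM to 38.0, 36.5 and 42.1 RPKM. In OT-I co-cultures Ltb went from 271, 299 and 194 RPKM to 60.5, 61.4 and 61.1 RPKM, the acute library of 194 RPKM being the one with raised low genes. Vehicle cells went from 271, 286 and 293 RPKM to 75.5, 77.8 and 75.1 RPKM. The means were 4.16-, 4.18- and 3.72-fold lower in chronic cells (log2 changes -2.02, -2.02 and -1.88, each SE 0.11, limma adjusted p of 1.63e-12, 6.50e-12 and 6.34e-12). None of the 3 differences between these effects passed: the OT-I effect minus the polyclonal one was 0.00 (95% confidence interval -0.32 to 0.33), the vehicle effect minus the polyclonal one 0.14 (-0.18 to 0.47) and the OT-I effect minus the vehicle one -0.14 (-0.46 to 0.18). Without OT-I acute library 3 the last became -0.32 and passed (limma adjusted p = 0.0126). NAC chronic cells held 126, 140 and 136 RPKM, between the vehicle chronic and vehicle acute libraries without overlap with either. They exceeded vehicle chronic cells 1.76-fold (log2 change 0.81, SE 0.11, limma adjusted p = 2.45e-06) and stayed below vehicle acute cells (log2 change -1.08, SE 0.11).

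Genes of TNF receptor and NF-κB signalling rose more often than they fell under chronic stimulation, with 10 of 19 higher and 4 lower in polyclonal, 12 and 2 in OT-I and 15 and 2 in vehicle cells. Their medians were 0.40, 0.29 and 0.73 log2 units, against -0.08, -0.12 and -0.03 over all genes. Of all genes 28.6%, 22.4% and 24.5% were higher and 35.5%, 36.2% and 34.4% lower in these experiments. With NAC 38.5% of all genes were higher and 22.6% lower than in vehicle chronic cells. Tnfaip3, which encodes the NF-κB inhibitor A20, rose from 18.7 ± 0.115 to 71.9 ± 0.0960 RPKM in polyclonal and from 8.96 ± 0.466 to 89.3 ± 1.56 RPKM in vehicle cells. Bcl3, an atypical IκB protein gene, rose from 12.2 ± 0.762 to 56.3 ± 3.02 RPKM in vehicle cells and was at 23.5 ± 1.92 RPKM with NAC, where 8 of the 19 genes were higher and 7 lower than in vehicle chronic cells. Icam1, an adhesion molecule gene, fell under NAC from 36.7 ± 1.82 to 17.3 ± 0.802 RPKM. Rhbdf2, a partner of the protease that sheds TNF from the cell surface, rose from 13.2 ± 0.944 to 29.2 ± 0.509 RPKM in vehicle cells and fell to 6.68 ± 0.438 RPKM with NAC. Zfp36, whose product tristetraprolin promotes decay of Tnf mRNA, rose in each of the 3 experiments, for example from 34.3 ± 1.63 to 57.3 ± 1.32 RPKM in vehicle cells. It was one of 11 genes of mRNA decay and ligand shedding, of which 5 rose and 5 fell in polyclonal, 6 and 1 in OT-I and 4 and 4 in vehicle cells.

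Fasl, which encodes the ligand of the death receptor Fas, fell with chronic stimulation in the polyclonal experiment and rose in the other two. Polyclonal acute cells had 53.9, 54.6 and 53.2 RPKM and polyclonal chronic cells 11.5, 11.6 and 10.8 RPKM, a 4.78-fold fall (log2 change -2.16, SE 0.043, limma adjusted p = 2.68e-19). Vehicle acute cells had 37.4, 40.3 and 39.5 RPKM and vehicle chronic cells 56.5, 59.0 and 58.9 RPKM, a rise (log2 change 0.56, SE 0.043, limma adjusted p = 5.41e-10). OT-I co-cultures changed least, from 24.8, 23.9 and 23.8 to 27.3, 28.2 and 25.6 RPKM (log2 change 0.15, SE 0.043, limma adjusted p = 0.00487). The vehicle effect exceeded the polyclonal one by 2.73 log2 units (SE 0.061, limma adjusted p = 5.02e-18) and the OT-I effect exceeded it by 2.32 (SE 0.061). In the polyclonal libraries Cd8a and Cd8b1 were lower too, and the NK cell markers summed to 42.8 to 50.9 RPKM in acute and 8.23 to 10.3 RPKM in chronic cells, with 1 of 4 higher and 2 lower. Their part in the fall of Fasl was not tested.

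NAC raised Fasl further, to 85.8, 82.4 and 86.2 RPKM, the highest of all 21 libraries. This was 1.46-fold above vehicle chronic cells (log2 change 0.54, SE 0.043, limma adjusted p = 1.49e-09) and 2.171-fold above vehicle acute cells. Fas itself, the receptor gene, fell from 12.4 ± 0.826 to 5.70 ± 0.729 RPKM in vehicle chronic cells and rose to 22.7 ± 1.87 RPKM with NAC. In polyclonal cells Fas rose from 5.61 ± 0.465 to 16.3 ± 1.60 RPKM. Of 8 genes of the death receptor pathway, 4 rose and 2 fell in polyclonal, 4 and 2 in OT-I and 3 and 3 in vehicle cells. With NAC 4 of the 8 rose and 3 fell, against 38.5% and 22.6% of all genes. In the polyclonal, OT-I and vehicle experiments 28.6%, 22.4% and 24.5% of all genes rose and 35.5%, 36.2% and 34.4% fell. Cflar, an inhibitor of caspase 8, rose from 11.9 ± 0.578 to 21 ± 0.571 RPKM in vehicle cells.

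Tnfsf11, which encodes RANKL, was low in all groups and rose to nearly the same level in the 3 chronic groups. It was at 2.69, 4.27 and 3.39 RPKM in polyclonal acute, 3.09, 3.58 and 2.83 RPKM in OT-I acute and 5.69, 5.63 and 5.15 RPKM in vehicle acute libraries. The chronic libraries had 8.14, 8.15 and 9.22, then 8.94, 9.0 and 7.96, and 9.20, 8.83 and 8.84 RPKM, so that neighbouring chronic groups overlapped. The log2 changes were 1.11, 1.21 and 0.62 (each SE 0.098, limma adjusted p of 4.00e-09, 2.32e-09 and 1.58e-05). NAC chronic libraries had 6.24, 6.58 and 6.27 RPKM, below all vehicle chronic ones (log2 change -0.44, SE 0.098, limma adjusted p = 0.000693). Against vehicle acute cells the NAC libraries were higher without overlap, but the change did not pass (log2 change 0.18, 95% confidence interval -0.02 to 0.39, limma adjusted p = 0.109). It passed with only the compared groups in the fit (adjusted p = 0.0216) and without the 3 libraries of raised low genes (adjusted p = 0.0297). RNA of its decoy receptor osteoprotegerin, Tnfrsf11b, was at 5.56 ± 0.337 RPKM in OT-I acute and 19.3 ± 0.333 RPKM in OT-I chronic co-cultures, and at 1.87 ± 0.357 RPKM in vehicle acute and 0.0275 ± 0.0239 RPKM in vehicle chronic cells.

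Other ligands of the TNF superfamily shared no single course with these 5. Of 7 in the table, 3 rose and none fell in polyclonal, 5 rose and 2 fell in OT-I, and 3 rose and 2 fell in vehicle chronic cells. With NAC 4 of the 7 rose and 3 fell, against 38.5% and 22.6% of all genes. In the polyclonal, OT-I and vehicle experiments 28.6%, 22.4% and 24.5% of all genes rose and 35.5%, 36.2% and 34.4% fell. Tnfsf8, the CD30 ligand gene, rose from 19.4 ± 0.840 to 155 ± 4.34 RPKM and Cd40lg, a helper molecule of CD4 T cells, from 13.2 ± 1.27 to 43.6 ± 3.89 RPKM in polyclonal cells, where Cd4 rose too. In vehicle cells the TRAIL gene Tnfsf10 rose from 8.16 ± 0.622 to 62.2 ± 1.31 RPKM and the OX40 ligand gene Tnfsf4 from 5.63 ± 1.48 to 22.3 ± 1.06 RPKM. There Cd40lg fell, from a mean of 4.01 to one of 0.428 RPKM. Tnfsf4 rose further with NAC, to 45.5 ± 0.679 RPKM, as Fasl did. OT-I co-cultures had a smaller rise of Tnfsf4, from 5.70 ± 0.164 to 11.9 ± 0.826 RPKM.

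Csf2 rose in all 3 experiments, least in the OT-I co-cultures. Polyclonal libraries went from 2.72, 2.53 and 4.18 to 46.8, 49.9 and 50.4 RPKM, and vehicle libraries from 11.7, 13.6 and 12.1 to 72.5, 75.8 and 82.1 RPKM. The OT-I libraries went from 2.65, 3.34 and 4.50 to 9.76, 11.1 and 12.6 RPKM, and so ended at the level where vehicle acute libraries began. In log2 units the changes were 3.61, 2.53 and 1.45 in the polyclonal, vehicle and OT-I experiments (each SE 0.13, limma adjusted p of 2.94e-15, 1.17e-12 and 1.42e-08). The OT-I effect lay below the polyclonal one (-2.165, SE 0.19, limma adjusted p = 5.51e-09) and the vehicle one (-1.08, SE 0.19, limma adjusted p = 5.28e-05). NAC chronic cells had 57.8, 54.3 and 50.3 RPKM, 1.42-fold less than vehicle chronic cells (log2 change -0.50, SE 0.13, limma adjusted p = 0.00295) and 4.34-fold more than vehicle acute ones. Csf2rb, the shared β chain of the GM-CSF receptor and a gene of myeloid cells, rose in polyclonal cells from 0.883 ± 0.779 to 16.5 ± 0.227 RPKM, in libraries where 2 of 7 myeloid markers rose and 3 fell. The sum of the 7 went from 43.8 to 54.2 up to 88.0 to 94.7 RPKM through Ly6g (mean 3.72 to 66.2 RPKM), while Itgax (14.99 to 2.88 RPKM) and Cd68 (22.4 to 11.9 RPKM) were lower. Their part in the rise of Csf2rb was not tested. A long non-coding RNA gene, Gm12223, overlaps Csf2 in the RefSeq annotation, and without strand its reads cannot be told apart from those of Csf2.

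Il10 had the widest range of the 8 genes, 239-fold between the lowest and the highest group mean. Polyclonal acute libraries had 2.51, 5.01 and 2.77 RPKM and polyclonal chronic ones 367, 376 and 398 RPKM, a ratio of the means of 111 (log2 change 6.47, SE 0.18, limma adjusted p = 2.48e-17). The acute library of 5.01 RPKM was one of those with raised low genes. Vehicle cells went from 7.91, 5.63 and 4.18 to 42.0, 41.4 and 41.9 RPKM (log2 change 2.67, SE 0.18, limma adjusted p = 4.52e-11) and OT-I co-cultures from 2.38, 3.60 and 3.09 to 11.7, 12.4 and 11.5 RPKM (log2 change 1.69, SE 0.18, limma adjusted p = 8.42e-08). The polyclonal effect was the largest: the OT-I effect lay below it by 4.78 log2 units (-4.78, SE 0.25) and the vehicle effect by 3.80 (-3.80, SE 0.25), both called. Il10 is made by B cells and CD4 T cells as well as by CD8 T cells, and markers of both rose in the polyclonal chronic libraries as given above. In OT-I chronic co-cultures, with Il10 at a mean of 11.9 RPKM, 6 of 8 B cell markers rose and none fell. With NAC, where Il10 was at a mean of 1.59 RPKM, 4 of 5 CD4 T cell markers were higher than in vehicle chronic cells and 1 lower. The part of these cell types in the Il10 values was not tested.

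NAC chronic cells held the least Il10 of the 7 groups, with 1.93, 1.59 and 1.24 RPKM, or 25 to 38 reads per library. This was 26.3-fold below vehicle chronic cells (log2 change -4.05, SE 0.18, limma adjusted p = 8.72e-14), and -4.65 with a pseudocount of 0.1 and -4.72 on recovered reads. It was also below vehicle acute cells without overlap (log2 change -1.39, SE 0.18, limma adjusted p = 6.68e-07). Of the genes that NAC moved against the chronic change, Il10 went past the vehicle acute level, while Ifng, Ltb, Tnfsf11 and Csf2 lay between both vehicle groups. Of the 8 genes 3 were higher and 4 lower in NAC chronic than in vehicle acute cells, where 66.3% of all genes were called (36.3% higher and 29.9% lower), and no library overlapped for any of the 8, as for 77.9% of all genes. In that comparison 54.8% of the called genes were higher, or 42.9% after rescaling.

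**Figure D3:**
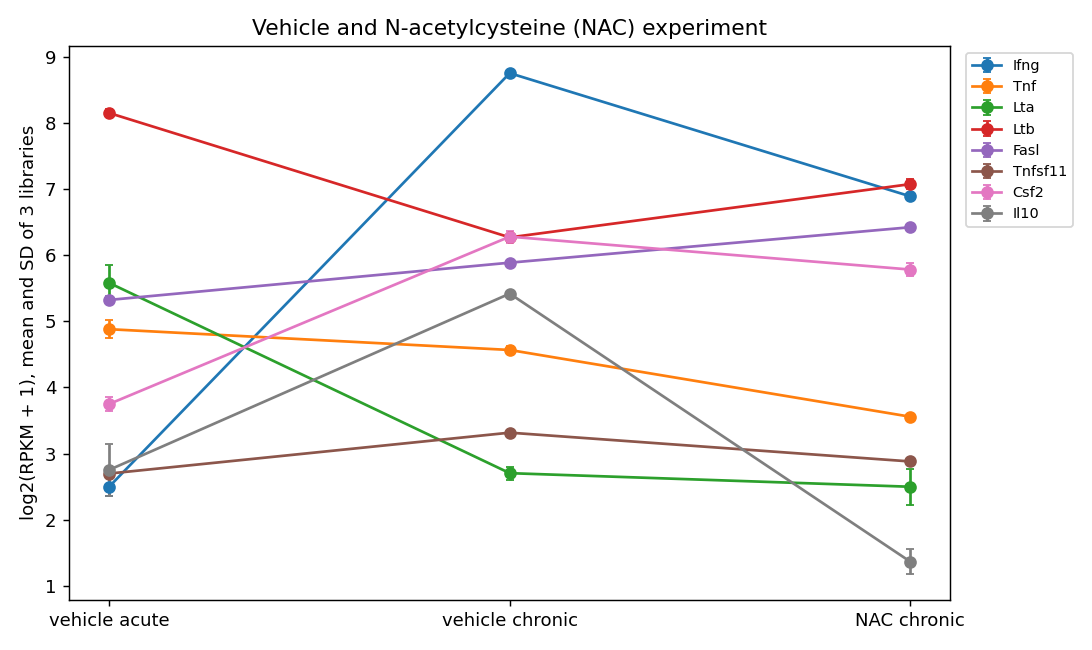
Mean and SD of log2(RPKM + 1) (y axis) of the 8 genes over 3 libraries each of vehicle acute, vehicle chronic and NAC chronic cells (x axis); lines join the means of a gene. Ifng and Il10 fall from vehicle chronic to NAC chronic cells by 1.86 and 4.05 log2 units, and Ltb and Fasl rise by 0.81 and 0.54.

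Regulators of Il10 and the signalling genes behind its receptor were counted in the same way. Of 10 genes 8 rose and 2 fell in polyclonal and in vehicle cells, and 5 rose and 2 fell in OT-I co-cultures. With NAC 3 rose and 7 fell, and the median was -0.94 log2 units. There 38.5% of all genes rose and 22.6% fell (median 0.08). In the polyclonal, OT-I and vehicle experiments 28.6%, 22.4% and 24.5% of all genes rose and 35.5%, 36.2% and 34.4% fell. Batf, an AP-1 family factor gene, rose from 52.7 ± 5.70 to 191 ± 16.2 RPKM in polyclonal chronic cells and fell from 83.6 ± 3.31 to 29.9 ± 1.32 RPKM with NAC. Maf, whose product activates Il10 in several T cell types, rose from 26.7 ± 1.32 to 97.5 ± 1.39 RPKM in polyclonal cells. In vehicle chronic cells Maf fell (log2 change -0.50) while Il10 rose, and it fell again with NAC (-0.76). Prdm1, which encodes Blimp-1, rose by 1.22 in vehicle chronic cells and fell with NAC (-1.31). Stat3, the main signal transducer of the interleukin 10 receptor, rose from 46.01 ± 0.895 to 216 ± 3.42 RPKM in vehicle cells and rose by a further 0.27 log2 units with NAC, whereas its target Socs3 fell with NAC from 13.3 ± 0.819 to 3.15 ± 0.198 RPKM. The receptor genes went the other way from the ligand: Il10ra rose with NAC from 26.1 ± 0.114 to 104 ± 4.71 RPKM, and Il10rb rose by 1.63 log2 units. Over all 12 receptor genes of these cytokines in the table, 7 rose and 5 fell in polyclonal, 4 and 4 in OT-I and 4 and 6 in vehicle chronic cells. With NAC 6 of the 12 rose and none fell, against 38.5% and 22.6% of all genes.

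**Figure D4:**
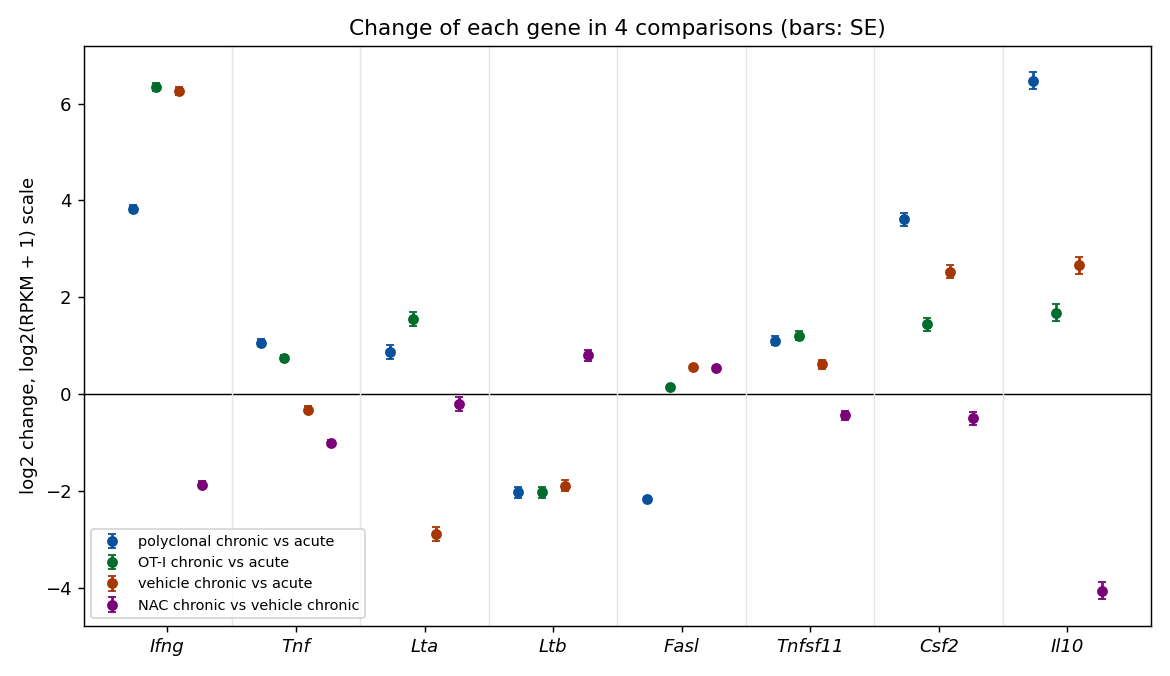
Log2 change with its SE (y axis, log2(RPKM + 1) scale) of the 8 genes (x axis) in 4 comparisons (colours). Ltb lies near -2 in each chronic against acute comparison, Lta lies at 0.87 and 1.55 in polyclonal and OT-I cells and at -2.88 in vehicle cells, and Il10 reaches 6.47 in polyclonal cells.

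The effect of chronic stimulation itself differed between experiments for most of the 8 genes. The OT-I effect was above the polyclonal one for 3 genes and below it for 3 (55.8% of all genes called, 26.6% higher and 29.2% lower). The vehicle effect was above the polyclonal one for 2 and below it for 5 (52.4% called, 25.1% higher and 27.3% lower). The OT-I effect was above the vehicle one for 3 and below it for 3 (58.5% called, 27.4% higher and 31.1% lower). Ltb was called in none of the 3.

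Set side by side per length, different members led the sum of the 8 RNAs in acute and chronic cells. The summed RPKM of the 8 genes was 245.5 ± 18.1 in polyclonal acute and 633 ± 29.5 in polyclonal chronic, 363 ± 57.1 in OT-I acute and 926 ± 16.5 in OT-I chronic, and 427 ± 4.20 in vehicle acute and 720.5 ± 8.31 in vehicle chronic cells. With NAC it was 414 ± 2.14 RPKM, near the vehicle acute sum, with other shares of the 8 genes. Ltb made up 65.7% ± 3.7, 69.8% ± 4.4 and 66.4% ± 2.8 of the sum in polyclonal, OT-I and vehicle acute cells. In OT-I chronic co-cultures Ifng made up 68.3% ± 0.096 and in vehicle chronic cells 59.7% ± 0.78, whereas in polyclonal chronic cells Il10 made up 60.1% ± 0.88 and Ifng 18.7% ± 0.96. NAC chronic cells had no single leading RNA: Ltb held 32.3% ± 1.6, Ifng 28.4% ± 0.94, Fasl 20.5% ± 0.51 and Csf2 13.1% ± 0.98. Lta was the second RNA in OT-I chronic co-cultures (15.1% ± 0.065) and the last in vehicle chronic cells (0.766% ± 0.053).

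**Figure D5:**
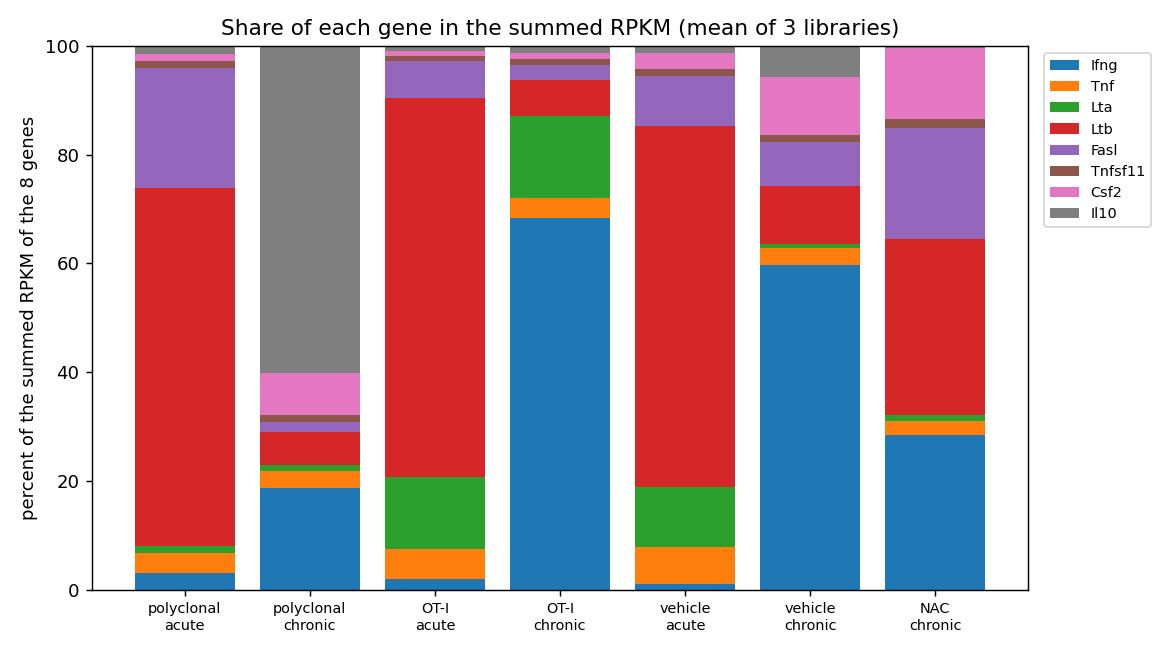
Share of each of the 8 genes (colours) in their summed RPKM (y axis, percent, mean of 3 libraries) in the 7 groups (x axis). Ltb fills about the same part of the bar in the 3 acute groups (65.7%, 69.8% and 66.4%), Ifng leads in OT-I and vehicle chronic cells, and Il10 leads in polyclonal chronic cells (60.1%).

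The 7 group means of each gene, on the log2(RPKM + 1) scale and centred on their own mean, were compared with those of all other tested genes by the root mean square difference. Tnf and Tnfsf11 were the most alike of the 8 (0.57 log2 units), and Ifng and Ltb the least (3.52). Nearest to Ifng over all genes were the granzyme gene Gzmc (1.16), the G protein regulator gene Rgs16 (1.18) and the granzyme gene Gzmf (1.2). Fasl had much closer neighbours, the ganglioside synthase gene B4galnt1 (0.21), Wscd2 (0.31) and the kinase gene Camk4 (0.31). Those of Csf2 were Rgs2 (0.71), the synapsin gene Syn1 (0.76) and Hivep3 (0.78), and those of Il10 were the proton pump subunit gene Atp6v0d2 (0.84), the cadherin gene Cdh17 (0.93) and Inhba (0.96), which encodes an activin subunit. Ltb was nearest to Entpd5 (0.36), Pdlim1 (0.36) and Lockd (0.39), Lta to Nov (0.91), Rxra (0.94) and Pf4 (0.96), Tnf to Thop1 (0.20), Tomm40 (0.22) and Rpl11 (0.23), and Tnfsf11 to Car12 (0.20) and Zfp36 (0.21).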

How the data were processed

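RNA of 21 libraries was measured by RNA sequencing of poly(A)+ RNA with NEBNext Ultra libraries, per the labels' protocols. The authors deposited 1 table of RPKM values on a linear scale, 1 column per library, and all columns were matched to samples by title. Tools named without roles in the submitters' processing notes are bcl2fastq 2.17, HTSeq and edgeR, with the build mm9. How reads were aligned and whether strand was used is not given in the sources available. Whole reads were recovered from the RPKM steps for 100% of genes (tolerance 0.001 reads), with the sum of listed reads as the authors' divisor, which gave the depths.

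From these values log2(RPKM + 1) was computed, and the 12630 genes that reached RPKM 1 in 3 libraries or more entered 1 limma fit (3.58.1, R 4.3.3) with a mean per group, a variance trend and 14 residual degrees of freedom. P-values are two-sided, with Benjamini-Hochberg adjustment over all genes tested. The script was tested on simulated data. None of the 21 pairs of libraries within groups was within sampling noise (chi-square per gene 1.52 to 54.6). The libraries were therefore counted as n = 3 per group. Separate preparations of 1 RNA can exceed sampling noise too, so this does not show separate animals or cultures.

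The 8 genes and all lists were chosen with earlier results of these data known. From each list up to 2 genes per comparison are named: the largest changes with adjusted p under 0.05, RPKM of 1 or more and no overlap. Cd274, Maf, Prdm1 and Cd40lg in vehicle cells were added after their values were seen. So were Ifngr2, Il10rb, Stat3, Maf and Prdm1 under NAC, and Ciita and Cd274 in OT-I co-cultures. The same holds for Ifngr1 in vehicle and NAC cells and Ifngr2 in polyclonal cells and OT-I co-cultures. The 3 most alike genes of each member are named, by the same rule for all, leaving out predicted genes, clones and small RNAs.

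Groups share replicate numbers. The main fit did not pair libraries, and pairing by number entered only as the replicate block among the alternatives. Same-numbered polyclonal libraries deviated together (r of 0.446, 0.629 and 0.168 across genes), a hint of pairing that no label gives. This hint is weak: acute library 1 correlated better with chronic library 3 (0.569) than with chronic library 1, and both libraries numbered 2 have raised low genes. In the other experiments same-numbered libraries had r of -0.167 to 0.079. The log2 changes and calls of the mediator genes, and the numbers of genes called, were recomputed under alternatives. These were the replicate block, limma-voom on recovered reads and scaling libraries to an equal median. Further ones were RPKM 5 as the filter or none, a pseudocount of 0.1, the compared groups alone and leaving out each library in turn. Results of the gene lists, cell type markers, shares, likeness and upstream sequences are given from the main values only. The fit without the 3 libraries of raised low genes was added after seeing the data. Upstream sequences are from RefSeq (GRCm38.p6), while the notes name mm9, so no other coordinates are given. Values of a few genes that these rules would name are not reported here.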

Additional observations from a re-analysis of the deposited data

Results flagged for a closer look

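The chronic effect differed between experiments for most of the 8 genes by a test of the difference itself (limma, adjusted p under 0.05 over all genes). Called differences numbered 6 of 8 for OT-I minus polyclonal (55.8% of all genes called), 7 of 8 for vehicle minus polyclonal (52.4%) and 6 of 8 for OT-I minus vehicle (58.5%). The OT-I effect minus the polyclonal one was 2.51 log2 units for Ifng, -0.32 for Tnf, 0.68 for Lta, 2.32 for Fasl, -2.17 for Csf2 and -4.78 for Il10. The vehicle effect minus the polyclonal one was 2.42 for Ifng, -1.38 for Tnf, -3.75 for Lta, 2.73 for Fasl, -0.49 for Tnfsf11, -1.08 for Csf2 and -3.80 for Il10. The OT-I effect minus the vehicle one was 1.06 for Tnf, 4.43 for Lta, -0.41 for Fasl, 0.59 for Tnfsf11, -1.08 for Csf2 and -0.98 for Il10. Each pair of these sets shares an experiment, so they are not independent, and cell source, stimulus and experiment cannot be told apart in them.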

How the results depend on the processing

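Of 64 results of the 8 genes (8 comparisons or differences each), 57 kept their direction and their side of the threshold under every alternative run. The number of the 8 genes called in each direction stayed within 1.5 times its main value in each comparison and setting. Signs turned only in differences that did not pass. For Ltb, OT-I minus polyclonal was -0.17 without the 3 libraries of raised low genes, and ranged from -0.18 to 0.13 over leaving out 1 library. For Tnfsf11 the same difference was -0.038 on recovered reads and -0.11 without the 3 libraries, and ranged from -0.026 to 0.23 over leaving out 1 library. For Ifng, OT-I minus vehicle was -0.031 on recovered reads. The cause was not tested. Calls that changed are named beside their results: Lta under NAC and in OT-I minus polyclonal (0.53 with a pseudocount of 0.1, 0.36 on recovered reads and 0.40 without the 3 libraries), Tnfsf11 in NAC chronic against vehicle acute, and Ltb in OT-I minus vehicle. The replicate block changed no call of the 8 genes, and gave 3778 genes higher and 4883 lower in polyclonal cells, against 3608 and 4489 without it. Depth limits Csf2 (14 to 37 reads), Lta (34 to 49 reads) and Il10 (31 to 42 reads) in polyclonal acute libraries, and Il10 with NAC (25 to 38 reads).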
